A study of Zea mays with 9 samples.

Results

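The response of maize root apexes to ammonium was described by comparing apexes supplied with ammonium (+NH4+) with apexes kept without nitrogen (-N). Expression values were in RPKM, reads scaled to transcript length and, by the authors' quartile normalization, between libraries. The comparison took in every identifier of the table with at least 1 RPKM in one of these conditions, which held for 21373 of 45260 identifiers. For each, the log2 ratio of the +NH4+ value to the -N value was computed. An identifier was counted as higher or lower when this ratio lay beyond 0.58 in either direction, a 1.5-fold difference.

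The plants were seedlings of B73, the inbred line on which the maize reference genome is built. They germinated for 3 days in the dark and, per the study's methods, all then spent 24 h in a solution without nitrogen before the treatments began. The comparison is thus one of nitrogen resupply with continued deprivation. The apexes of the primary roots were taken 24 h after the start of treatment, from the control solution without nitrogen (-N), from 1 mM NH4Cl (+NH4+) or from 1 mM KNO3 (+NO3-). The record lists 3 replicates per condition, each a pool of seedlings, so that 6 of the 9 libraries stand behind the comparison of +NH4+ with -N. All 3 conditions shared genotype, age and culture, and the chloride and potassium that came with the nitrogen salts were not separated from the nitrogen form.

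The table holds 1 value per identifier and condition, the authors' estimate over the replicates. No spread between replicates can be drawn from it, no test was made, and the differences below are sizes without a significance. RPKM keeps no read numbers, so the depth under each value is unknown. The values summed to 885720 RPKM in -N and 929408 RPKM in +NH4+, and 20324 and 20848 identifiers reached 1 RPKM. In RNA from a whole apex, fewer cells of a type and less RNA per cell cannot be told apart. The plastid photosystem genes psbB, psaC, psbH and psbC were all at or under 0.635 RPKM in both conditions. SOMBRERO (Zm00001d016119), known from Arabidopsis as a regulator of root cap maturation, was at 1.17 RPKM in -N and 2.84 RPKM in +NH4+. PCNA (Zm00001d018415), the sliding clamp of DNA replication and a marker of dividing cells, was at 78.3 RPKM in -N and 39.1 RPKM in +NH4+. SOMBRERO and PCNA thus differed between the conditions. The study had listed both among genes changed in these same samples, so this difference was a condition of selection and is no independent sign of shifted cell types. The part of cell types in the differences described below was not tested.

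Ammonium is the reduced form of mineral nitrogen. Roots take it up through transporters of the AMT family and incorporate it into glutamine through glutamine synthetase, without the reduction by nitrate and nitrite reductase that nitrate needs. Ammonium as the main nitrogen source is known to acidify the medium around the root, to compete with potassium and other cations, and at high supply to inhibit root elongation.

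More identifiers were higher than lower in +NH4+. Of the 21373 identifiers compared, 4179 were higher than in -N (19.6%) and 2420 were lower (11.3%), so that 30.9% lay past the threshold and 14774 lay within it. The excess of higher values grew with the size of the difference. Beyond a log2 ratio of 1 there were 2129 higher identifiers (9.96%) and 591 lower (2.77%). Among the 21233 identifiers above 0 in both conditions, 552 were higher and 55 lower beyond 2, and 70 and 2 beyond 4. The centre of the distribution lay close to 0, with a median log2 ratio of 0.02, while the 5th percentile was -0.81 and the 95th percentile 1.47. The long tail of the distribution was thus on the higher side. These counts include 77 identifiers at 0 in the -N column, 25 of them Zm00001d gene models, and 63 at 0 in the +NH4+ column, 10 of them gene models. Such identifiers were counted by direction and given no ratio.

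The excess of higher values was a feature of genes of low and middle level. For identifiers with a mean of 1 to 100 RPKM over both conditions, 3624 were higher and 2050 lower, among 19178. Among the 1564 identifiers with a mean of at least 100 RPKM, 201 were higher and 225 lower, the median log2 ratio was -0.12, and 912 of them (58.3%) had a lower value in +NH4+ than in -N. Large differences in these abundant transcripts still lay mostly on the higher side, with 100 higher and 24 lower beyond a log2 ratio of 1. Many abundant transcripts were therefore slightly lower while a smaller number were much higher. When the columns were rescaled in 4 other ways, the lower abundant identifiers numbered 247 to 283 and the higher ones 172 to 192. Identifiers with a mean under 1 RPKM are not comparable with the rest, since they entered only through the column in which they reached 1 RPKM.

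**Figure D1:**
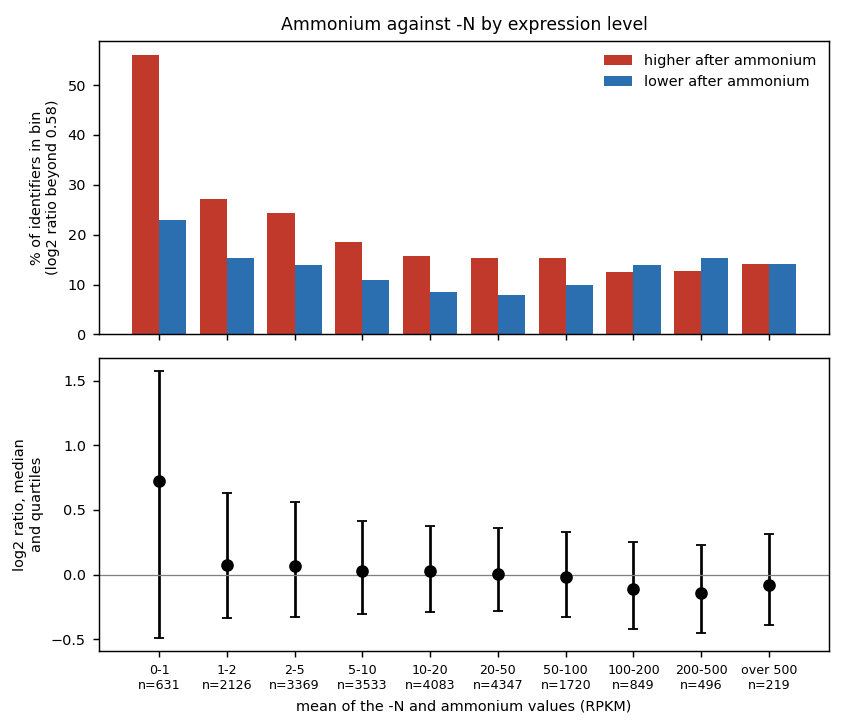
Percentage of identifiers higher or lower in +NH4+ (upper panel) and the median and quartiles of the log2 ratio of +NH4+ to -N (lower panel), in bins of the mean RPKM of both conditions, with the number of identifiers under each bin. The higher share was 24.3% at 2 to 5 RPKM and 12.6% at 100 to 200 RPKM, where the lower share was 13.9%; the lowest bin holds identifiers that entered through a single column.

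Summed over the Zm00001d gene models compared, 10841 genes with a higher value gained 133461 RPKM and 10085 genes with a lower value lost 111821 RPKM. The 100 largest gains made up 34.4% of the gain and the 100 largest losses 27.2% of the loss. The largest gain of a gene model was that of Zm00001d045042, from 1151 RPKM in -N to 4186 RPKM in +NH4+, with 1289 RPKM in +NO3-. Zm00001d033931 followed, with 2306 RPKM in -N, 4914 RPKM in +NH4+ and 2239 RPKM in +NO3-. Both were near their -N level under nitrate. Zm00001d042115 combined a large gain with a large ratio, from 58.3 RPKM to 1076 RPKM (log2 ratio 4.20), and Zm00001d000508 went from 136 to 1419 RPKM (3.39). The sources used here give no description for these 4 genes. On the losing side Zm00001d040508 was largest, with 4677 RPKM in -N and 2427 RPKM in +NH4+, a log2 ratio of -0.95. Zm00001d033850 had 4804 RPKM in -N and 3533 RPKM in +NH4+, a large loss of transcript that stayed within the fold threshold (-0.44). Among gene models that were above 0 in both conditions and reached 10 RPKM in either, only Zm00001d020028 (-2.95) and Zm00001d040422 (73.6 to 16.9 RPKM, -2.12) lay below -2. Gene models at 0 in +NH4+ have no ratio, and the highest of these 10 in -N was Zm00001d032382, at 30.9 RPKM, named here after its values were seen. The 10 largest rises of gene models under the same limits ran from 4.70 to 5.29. One of them, Zm00001d051938, stood at 6.40 RPKM in -N, 237 RPKM in +NH4+ and 1.01 RPKM in +NO3-.

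The genes below are grouped by role. They are the 250 genes that the study described in its lists by function, and these lists were drawn from genes the study had selected on these same samples. Their direction is therefore not independent evidence, and their counts are a description. A list in which all genes were higher says nothing of its gene family or pathway as a whole. Listed genes under 1 RPKM in -N were compared only if they reached it in +NH4+, so the minimum also fixed their direction. Of these, 114 came from the cluster of genes higher under ammonium alone, and 85 from the clusters of genes higher under both nitrogen forms. In all, 245 genes were compared, of which 197 were higher and 18 lower, beside 19.6% and 11.3% of all identifiers. The other 5 stayed under 1 RPKM, the nearest to the limit being a mannitol dehydrogenase gene (Zm00001d004443) with 0.974 RPKM in -N and 0.584 RPKM in +NH4+. The nearest gene above the limit was the urea transporter DUR3, with 1.08 RPKM in +NH4+. Values in +NO3- are given beside the others for orientation. Both treatments were set against the same -N values, and no relation between them was computed.

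**Figure D2:**
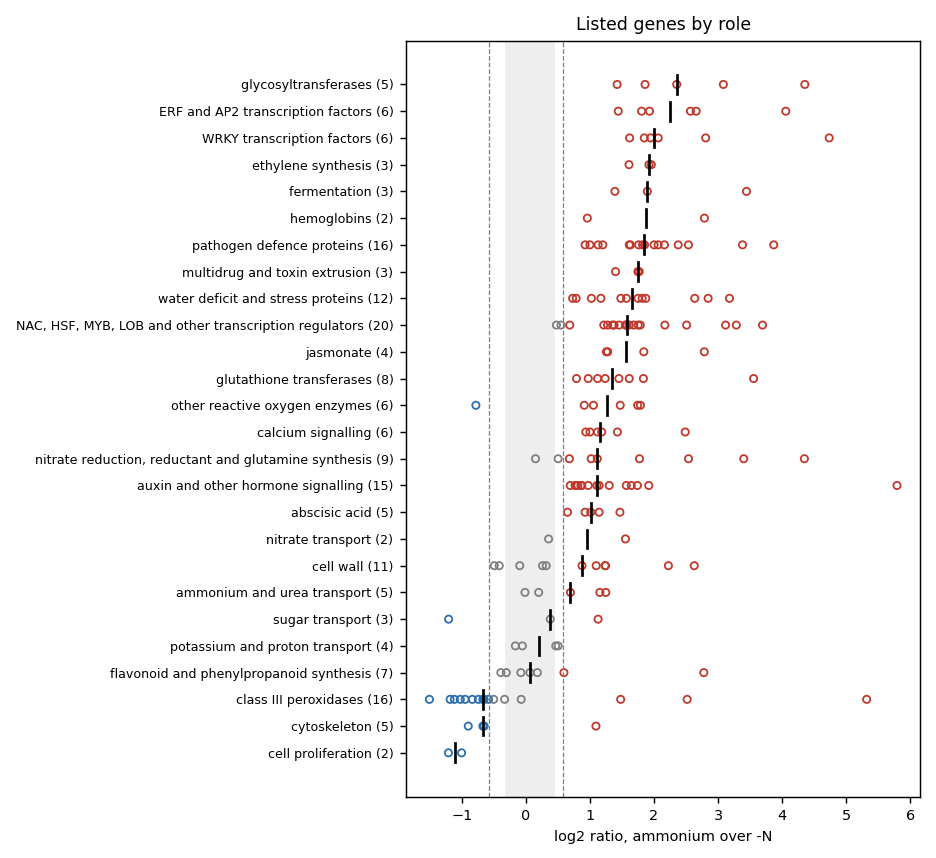
Log2 ratio of +NH4+ to -N (horizontal axis) for each listed gene compared (circles, red above 0.58, blue below -0.58, grey between), by role list with the number of genes in parentheses. Black bars are medians, dashed lines mark the threshold, and the grey band spans the quartiles of all identifiers, -0.31 to 0.44; peroxidases, cytoskeleton and cell proliferation are the lists with medians below the band.

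Ammonium transporters were partly higher. ZmAMT1;1a (Zm00001d025831), a high-affinity ammonium transporter of the root, was at 8.72 RPKM in -N, 19.4 RPKM in +NH4+ and 3.91 RPKM in +NO3-, a log2 ratio of 1.16 to -N. An AMT2-type transporter gene (Zm00001d016771) was at 3.90 RPKM in -N and 9.26 RPKM in +NH4+ (1.25). The other AMT2-type genes stayed within the threshold in +NH4+, with Zm00001d034782 at 8.57 and 8.49 RPKM and Zm00001d017249 at 2.81 and 3.23 RPKM. The 4 ammonium transporters therefore divided evenly, and each had a higher value with ammonium than with nitrate. DUR3 (Zm00001d037242), a proton-coupled urea importer, was at 0.666 RPKM in -N, 1.08 RPKM in +NH4+ (0.70) and 0.144 RPKM in +NO3-. Summed over these 5 transport genes, expression was 24.7 RPKM in -N, 41.5 RPKM in +NH4+ and 11.96 RPKM in +NO3-.

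Of the nitrate transporters of the list, ZmNRT1b (Zm00001d036941) was at 1.29 RPKM in -N, 3.78 RPKM in +NH4+ and 1.58 RPKM in +NO3-, a log2 ratio of 1.56 with ammonium. ZmNRT1a (Zm00001d029932), of the same peptide and nitrate transporter family, was at 17.8 RPKM in -N and 22.7 RPKM in +NH4+, within the threshold.

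The listed genes of nitrate reduction were higher although no nitrate was supplied with the ammonium. Nitrite reductase (Zm00001d018161), the plastid enzyme that turns nitrite into ammonium, was at 0.820 RPKM in -N and 16.7 RPKM in +NH4+, a log2 ratio of 4.35. Its value in +NO3- was 16.3 RPKM. The NADH nitrate reductase gene Zm00001d049995, which catalyses the step before it, was at 0.291 RPKM in -N, 1.70 RPKM in +NH4+ and 1.77 RPKM in +NO3-. For both enzymes the ammonium and nitrate values lay close together. A second nitrate reductase gene (Zm00001d017025) differed from them, with 0.109 RPKM in -N, 1.15 RPKM in +NH4+ and 0.219 RPKM in +NO3-. Both nitrate reductase genes remained low, under 2 RPKM in every condition. These nitrate and nitrite reductase genes were all under 1 RPKM in -N. They were compared only because they reached 1 RPKM in +NH4+, so the minimum fixed their direction.

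Ferredoxins carry electrons to nitrite reductase, and in roots they are reduced by ferredoxin-NADP reductase. The 3 ferredoxin genes were all higher, with a sum of 17.4 RPKM in -N and 50.05 RPKM in +NH4+, and the most abundant, Zm00001d038291, was at 10.1 and 34.6 RPKM (1.77). The root isozyme of ferredoxin-NADP reductase (Zm00001d034345) was at 52.3 RPKM in -N and 83.7 RPKM in +NH4+ (0.68). Those 3 ferredoxins and the reductase were at higher values with nitrate than with ammonium. The plastid glutamine synthetase gene (Zm00001d026501), which joins ammonium to glutamate, was at 4.93 RPKM in -N, 6.99 RPKM in +NH4+ and 13.6 RPKM in +NO3-, within the threshold with ammonium (0.50). The plastid glucose-6-phosphate translocator (Zm00001d021653), which imports the sugar phosphate that feeds reductant production in root plastids, was also within it (0.996 and 1.11 RPKM). In this list 7 of 9 genes were higher and none lower, with a median log2 ratio of 1.12 beside 0.02 for all identifiers. The study had selected these genes on the same samples, so the contrast with all identifiers is no independent evidence. The nitrate and nitrite reductase genes among them also entered only through +NH4+.

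Hemoglobin 1 (Zm00001d048020), a non-symbiotic hemoglobin that scavenges nitric oxide, had the highest level of the nitrogen genes in +NH4+. It was at 33.1 RPKM in -N, 229 RPKM in +NH4+ and 300.5 RPKM in +NO3-, a log2 ratio of 2.79 with ammonium. The hemoglobin-like gene HbO (Zm00001d046472) was at 27.8 RPKM in -N and 54.0 RPKM in +NH4+ (0.96). Hemoglobin 2 (Zm00001d038718) stayed under 1 RPKM in both, at 0.313 and 0.830 RPKM, and was not compared.

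**Figure D3:**
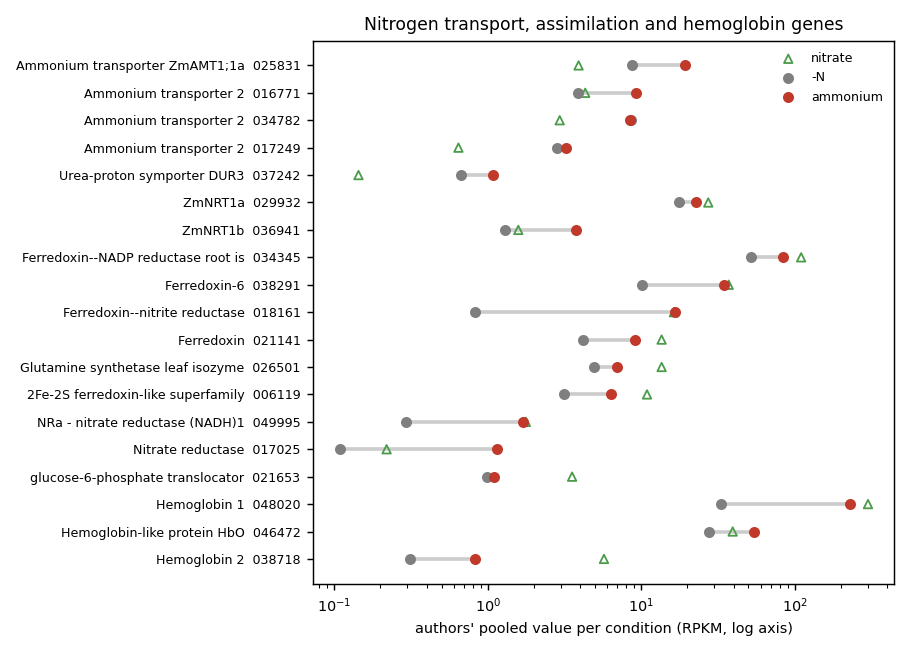
Authors' RPKM value per condition (logarithmic axis) for genes of ammonium, urea and nitrate transport, nitrate reduction and hemoglobins, each labelled with the last 6 digits of its identifier. Grey circles are -N, red circles +NH4+ and open green triangles +NO3-; nitrite reductase (0.820 to 16.7 RPKM) has the longest line, and no gene has its +NH4+ circle clearly left of its -N circle.

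Pyruvate decarboxylase directs pyruvate from respiration into ethanolic fermentation, and its 3 listed genes were all higher. Zm00001d028759 was at 225 RPKM in -N, 589 RPKM in +NH4+ and 230.4 RPKM in +NO3-. Zm00001d010588 was at 73.7 RPKM in -N and 274 RPKM in +NH4+ (1.90). Zm00001d008651 was at 4.90 RPKM in -N and 53.3 RPKM in +NH4+ (3.44), with 2.14 RPKM in +NO3-. Together they stood at 303 RPKM in -N, 917 RPKM in +NH4+ and 338 RPKM in +NO3-.

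The listed genes of ethylene formation and response that were compared were higher with ammonium, the direction for which the study had listed them. Ethylene genes outside the lists were not examined. ACC oxidase carries out the last step of ethylene synthesis, and its 3 listed genes were all higher, led by Zm00001d011208 at 116 RPKM in -N and 439 RPKM in +NH4+ (1.92). The 7 ERF and AP2 genes, a family of transcription factors that includes the ethylene response factors, had one member under 1 RPKM, and the other 6 were all higher with a median log2 ratio of 2.25. The ERF-like gene Zm00001d022461 showed the largest ratio of them, from 10.2 RPKM in -N to 171 RPKM in +NH4+ (4.06), with 13.3 RPKM in +NO3-. The most abundant, Zm00001d009103, was at 79.8 RPKM in -N and 474 RPKM in +NH4+ (2.57). RAP2-2 (Zm00001d040651), whose Arabidopsis relative acts in the response to low oxygen, was at 17.1 RPKM in -N, 108 RPKM in +NH4+ and 22.7 RPKM in +NO3-. Summed over the 7 genes, expression was 134 RPKM in -N, 829 RPKM in +NH4+ and 186 RPKM in +NO3-.

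The listed WRKY factors, of a plant family known for roles in defence and stress responses, were all higher but at lower levels. The study had listed them as higher with ammonium, alone or with both nitrogen forms. The 6 genes had a median log2 ratio of 2.01 and summed to 20.6 RPKM in -N and 79.8 RPKM in +NH4+. Zm00001d049173 showed the largest ratio, from 0.135 RPKM to 3.60 RPKM (4.74), and Zm00001d010399 the highest level, at 29.0 RPKM in +NH4+ against 9.43 RPKM in -N. WRKY71 (Zm00001d053746) was at 1.51 RPKM in -N and 10.6 RPKM in +NH4+ (2.81).

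The 5 listed NAC factors, of another family linked to stress and to cell differentiation, were also higher. Zm00001d012527 went from 4.04 to 52.3 RPKM (3.69) and Zm00001d019207 from 14.7 to 83.7 RPKM (2.51). Their values in +NO3-, 7.70 and 14.5 RPKM, were nearer to -N. SOMBRERO belongs to this family and had a higher value with nitrate (4.77 RPKM) than with ammonium. A heat shock factor gene (Zm00001d020714), of the family that activates chaperone genes, was at 0.513 RPKM in -N and 5.01 RPKM in +NH4+ (3.29). In the wider list of transcription regulators, 18 of 20 genes were higher. The exceptions were the R2R3 MYB gene Zm00001d022628 (25.9 and 36.1 RPKM) and the MYB gene Zm00001d024546 (2.67 and 3.90 RPKM), both within the threshold.

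Other hormone genes followed. TIFY proteins, among them the JAZ repressors of jasmonate signalling, were represented by 4 genes, of which 3 were compared and higher. Zm00001d022139 was the most abundant, at 84.0 RPKM in -N and 301 RPKM in +NH4+ (1.84). Lipoxygenases start the synthesis of jasmonate and other oxylipins, and lipoxygenase12 (Zm00001d041204) was at 7.24 and 17.6 RPKM (1.28). Its description does not say which of these products it serves. The 5 abscisic acid genes were all higher, with a median of 1.01. They include genes of opposite roles. Zeaxanthin epoxidase (Zm00001d025545), an early step of abscisic acid synthesis, was at 7.66 RPKM in -N and 21.2 RPKM in +NH4+. Abscisic acid 8'-hydroxylase (Zm00001d017762), which starts its breakdown, was at 16.1 and 32.6 RPKM.

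All 15 listed genes of auxin and other hormones were higher, with a median log2 ratio of 1.11. Gibberellin 20-oxidase (Zm00001d049926), an enzyme of gibberellin synthesis, had the largest ratio, 5.79, from 0.135 RPKM in -N to 7.49 RPKM in +NH4+. PIN-LIKES 7 (Zm00001d021413), of a family that holds auxin in the endoplasmic reticulum, was at 47.6 RPKM in -N and 180.2 RPKM in +NH4+ (1.92). The Aux/IAA repressor IAA24 (Zm00001d018973) was at 27.9 and 87.2 RPKM (1.65), and the auxin receptor TIR1 (Zm00001d007357) at 16.3 and 35.1 RPKM (1.11). The list thus holds both the receptor and a repressor of the auxin response.

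Calcium signalling was represented by 6 genes, all higher. The calcium sensor calcineurin B-like 5 (Zm00001d044389) was at 25.7 RPKM in -N, 144 RPKM in +NH4+ (2.49) and 22.5 RPKM in +NO3-. Calcium-dependent protein kinase5 (Zm00001d002540) was at 51.9 and 104 RPKM (1.00). Among reactive oxygen enzymes outside the peroxidases, 5 of 6 genes were higher. Respiratory burst oxidase4 (Zm00001d052653), an NADPH oxidase that makes superoxide at the plasma membrane, was at 6.70 RPKM in -N and 23.1 RPKM in +NH4+ (1.79). Superoxide dismutase (Zm00001d009990), which converts superoxide to hydrogen peroxide, was at 184 and 346 RPKM (0.91). Both the source and the scavenger of superoxide were higher.

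Genes for the handling of toxic and secondary compounds were higher without exception in their lists. The 8 glutathione transferases, which couple glutathione to reactive molecules, summed to 231 RPKM in -N, 645 RPKM in +NH4+ and 315 RPKM in +NO3-. The largest ratio was that of glutathione transferase31 (Zm00001d027557), from 10.5 to 123 RPKM (3.56). The most abundant was glutathione transferase5 (Zm00001d034356), at 79.9 and 188 RPKM (1.24). The 5 glycosyltransferases, which attach sugars to hormones and secondary metabolites, had the highest median of the lists, 2.36, from low levels of 10.7 RPKM in sum. Zm00001d021168 was at 0.662 RPKM in -N and 13.6 RPKM in +NH4+ (4.36). The 3 transporters of the multidrug and toxin extrusion family were higher with a median of 1.75. The one annotated for aluminium tolerance (Zm00001d035115) was at 49.1 RPKM in -N, 130 RPKM in +NH4+ and 14.1 RPKM in +NO3-.

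The 16 pathogen defence genes were all higher, with a median of 1.84. The cysteine-rich protein LCR70 (Zm00001d021843), of a family of small secreted peptides related to defensins, was at 7.86 RPKM in -N, 115 RPKM in +NH4+ (3.87) and 11.9 RPKM in +NO3-. Chitinase B1 (Zm00001d025753), an enzyme that cleaves fungal chitin, was at 0.271 and 2.83 RPKM (3.38). The highest level in this list was that of a subtilisin-chymotrypsin inhibitor (Zm00001d035683), a protease inhibitor, at 198 RPKM in -N and 456 RPKM in +NH4+. Benzoxazinone synthesis13 (Zm00001d007718), of the pathway for the main defence metabolites of maize seedlings, was at 12.4 RPKM in -N and nearly equal values of 55.5 RPKM in +NH4+ and 54.6 RPKM in +NO3-.

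The 12 genes of water deficit and general stress carried the largest summed level of the role lists in +NH4+, 774 RPKM in -N and 2926 RPKM in +NH4+, with 1192 RPKM in +NO3-. RCI2B (Zm00001d024778), a small hydrophobic membrane protein known from cold and salt stress, was at 285 RPKM in -N and 1045 RPKM in +NH4+ (1.87). A universal stress protein gene (Zm00001d009118) was at 77.3 RPKM in -N, 700 RPKM in +NH4+ (3.18) and 113 RPKM in +NO3-. An ERD15-like gene (Zm00001d007097), named for its early response to dehydration, was at 4.13 and 25.7 RPKM (2.64). The dehydrin COR410 (Zm00001d017547), a protein that protects membranes under water loss, differed from these by a higher value with nitrate, at 3.88 RPKM in -N, 11.5 RPKM in +NH4+ and 17.3 RPKM in +NO3-. All 12 genes were higher, with log2 ratios from 0.73 to 3.18.

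In the list of cell wall genes, 6 of 11 were higher. They included both prolyl 4-hydroxylases, which modify extensins, with Zm00001d007765 at 13.05 and 80.7 RPKM (2.63), an extensin-like gene (Zm00001d038741) at 2.19 and 10.2 RPKM (2.23), and the xyloglucan-modifying enzyme Zm00001d014613 at 12.4 and 29.1 RPKM (1.24). The 5 genes within the threshold were glucanases, galactosidases and a glucosidase that the study listed for nitrate. Of 7 listed genes of flavonoid and phenylpropanoid synthesis, 2 were higher, none lower and 5 within the threshold, with a median log2 ratio of 0.06. All of them except dihydroflavonol reductase came from the study's lists for nitrate alone. Values near -N with ammonium were partly a condition of that selection, so this median does not describe the pathway. The study itself reported its flavonoid category as enriched among genes up-regulated by ammonium. Dihydroflavonol reductase (Zm00001d009666), which makes the precursors of anthocyanins, was at 4.24 RPKM in -N and 29.0 RPKM in +NH4+ (2.78). A dirigent gene (Zm00001d047775) was just past the threshold at 0.59. Phenylalanine ammonia lyase7 (Zm00001d017279), the entry to the pathway, was at 6.61 and 7.49 RPKM and within it, as was a flavonoid gene annotated as red aleurone1 (Zm00001d017077), at 10.6 and 8.57 RPKM (-0.31).

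Among the listed genes, most of those lower were peroxidases and tubulins, which the study had listed as lower with both nitrogen forms. Class III peroxidases are secreted enzymes that use hydrogen peroxide and act on cell wall phenolics. Of 16 listed, 10 were lower and 3 higher in +NH4+, with a median of -0.66, and their sum was 1328 RPKM in -N and 874 RPKM in +NH4+. The most abundant, Zm00001d040364, was at 889.5 RPKM in -N, 498.5 RPKM in +NH4+ (-0.84) and 425 RPKM in +NO3-. Zm00001d038598 was at 137, 70.9 and 55.4 RPKM in the same order. Zm00001d022283 was at 62.7 RPKM in -N, 27.6 RPKM in +NH4+ (-1.18) and 6.84 RPKM in +NO3-. In these genes the nitrate value was the lowest, as in all 12 peroxidases of the shared cluster. The 3 higher genes came from the ammonium list. Peroxidase 16 (Zm00001d014608) was at 20.5 RPKM in -N and 117 RPKM in +NH4+ (2.52), and Zm00001d010218 at 0.240 and 9.60 RPKM (5.32). Peroxidase genes are similar to each other, and the authors' sharing of reads between similar genes makes the single values less certain.

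Tubulins, the subunits of microtubules, were represented by 4 genes, all lower, with a sum of 1341 RPKM in -N, 819 RPKM in +NH4+ and 761 RPKM in +NO3-. The alpha tubulin genes Zm00001d021891 and Zm00001d006651 were at 642 and 276 RPKM in -N and at 404 and 148 RPKM in +NH4+. The beta tubulin5 gene (Zm00001d040509) was at 365 and 231 RPKM (-0.66). Tubulins are also a family of similar genes, with the same limit as the peroxidases. Actin-depolymerizing factor 5 (Zm00001d047942), which acts on actin filaments, went the other way, from 20.5 to 43.7 RPKM (1.09).

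Both listed genes of cell proliferation were lower, and they differed between the nitrogen forms. PCNA had 39.1 RPKM in +NH4+ (-1.003) and 72.96 RPKM in +NO3-, against 78.3 RPKM in -N. A Faciata 1-like gene (Zm00001d012166), whose Arabidopsis relative is a chromatin assembly subunit, was at 8.13 RPKM in -N, 3.52 RPKM in +NH4+ (-1.21) and 6.89 RPKM in +NO3-. The sugar exporter gene of the SWEET family that the study singled out (Zm00001d015905) was at 32.3 RPKM in -N, 14.01 RPKM in +NH4+ (-1.20) and 50.5 RPKM in +NO3-. The dynamin-related gene Zm00001d033751, a membrane-fission protein grouped with the reactive oxygen genes by the study, was at 65.8 and 38.3 RPKM (-0.78).

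**Figure D4:**
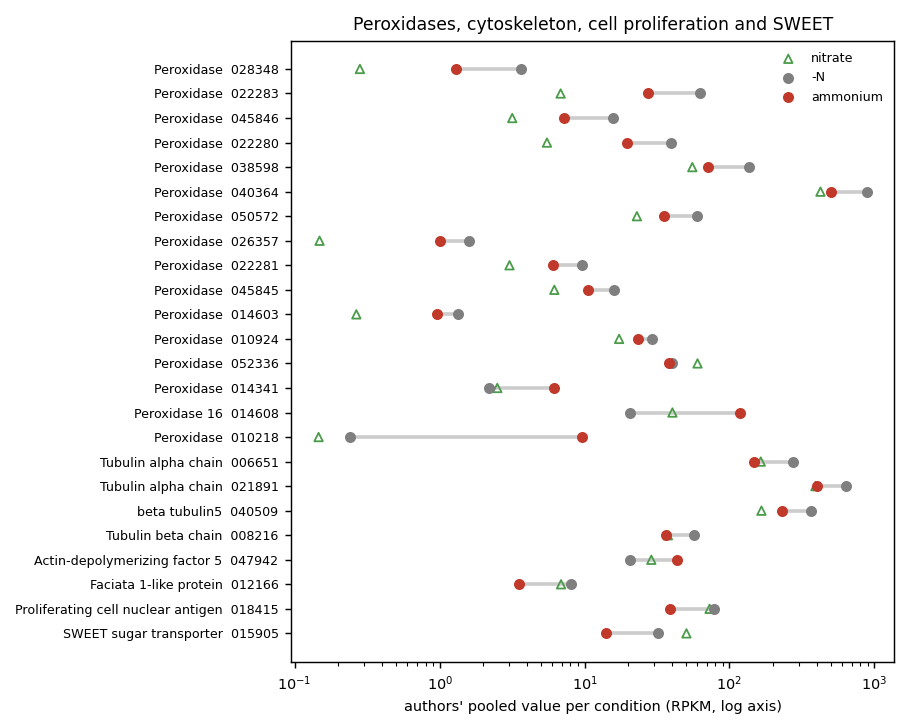
Authors' RPKM value per condition (logarithmic axis) for the 16 class III peroxidases, the cytoskeleton genes, the cell proliferation genes and the SWEET gene, each labelled with the last 6 digits of its identifier; symbols are grey for -N, red for +NH4+ and open green triangles for +NO3-. Lines running left from the grey circle are lower in +NH4+, and the 3 peroxidases at the foot of their block, 2.52 and 5.32 among them, run right.

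The study also listed genes for a response to nitrate alone. Of 31 such genes, 29 were compared with ammonium, and 5 of these were higher, none lower and 24 within the threshold, beside 19.6% higher, 11.3% lower and 14774 of 21373 within it for all identifiers. The median log2 ratio of these 29 genes was 0.15. The study had grouped them by their values in all 3 conditions, ammonium included. Values near -N with ammonium were therefore partly a condition of selection, and these counts are no independent evidence. Potassium uptake carriers were among these genes. The 3 potassium transporter genes summed to 118 RPKM in -N, 114 RPKM in +NH4+ and 59.8 RPKM in +NO3-. The plasma membrane proton pump gene (Zm00001d002006), which energises uptake, was at 506 RPKM in -N, 718 RPKM in +NH4+ (0.50) and 272 RPKM in +NO3-. A dirigent gene (Zm00001d052585) had 1.53 RPKM in -N and 1.45 RPKM in +NH4+, with 46.7 RPKM in +NO3-.

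Identifiers outside the Zm00001d gene models were spread more widely. Of 20926 gene models compared, 30.0% lay past the threshold, against 78.6% of 210 small nucleolar RNAs, 51.6% of 64 ribosomal RNAs and 67.2% of 61 spliceosomal RNAs. An identifier at 0 in 1 condition lay past the threshold by construction. Of the spliceosomal RNAs, 11 were at 0 in -N and 3 in +NH4+. Part of the larger shares of these classes came from such identifiers. The record describes the RNA as polyA, while these classes as a rule lack long poly(A) tails. Small nucleolar RNAs, which guide the modification of ribosomal RNA, were lower in 107 cases and higher in 58, and summed to 9622 RPKM in -N, 6112 RPKM in +NH4+ and 12469 RPKM in +NO3-. Of these, 27 were listed at 0 in -N and 35 in +NH4+. Ribosomal RNA identifiers went the other way, with 22 higher and 11 lower and a sum of 57934 RPKM in -N, 82465 RPKM in +NH4+ and 83960 RPKM in +NO3-. A large-subunit identifier on chromosome 6 (12824695 to 12824911 of B73 RefGen_v4, from the annotation in the study's data) made up 13300 RPKM of the difference, with 9282 RPKM in -N and 22581 RPKM in +NH4+. A neighbouring one (12823640 to 12824642) was at 3591 RPKM in -N and listed at 0 in +NH4+ and in +NO3-. The sequences of such repeats are nearly alike and the split of reads between them is uncertain. All 6 signal recognition particle RNAs past the threshold, of 8 compared, were higher, and enod40, a short RNA with a role in nodule and root organ formation in legumes, was at 373 RPKM in -N and 575 RPKM in +NH4+ (0.63).

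**Figure D5:**
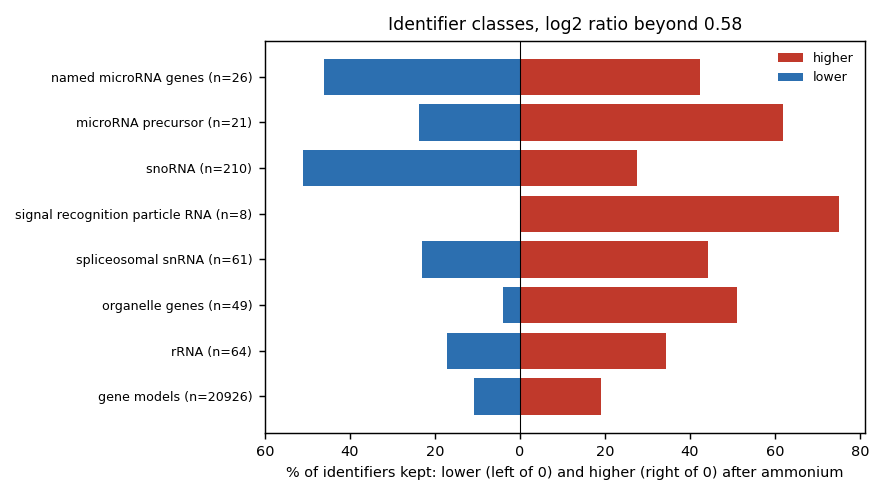
Percentage of the identifiers compared that were higher (right of 0) or lower (left of 0) in +NH4+, by class of identifier, with the number compared in parentheses; classes of fewer than 8 identifiers are not drawn. Small nucleolar RNAs have the longest bar to the left, 107 of 210, and signal recognition particle RNAs have none.

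Organelle genes were higher more often than lower. Of 40 mitochondrial identifiers, 18 were higher and 1 lower, beside 19.6% higher and 11.3% lower of all identifiers. Of the 40, 34 had a higher value than in -N, and their median log2 ratio was 0.53. The most abundant were within the threshold, with the highest at 290 RPKM in -N and 306 RPKM in +NH4+. One mitochondrial identifier, GRMZM5G834298, stood apart, at 3.30 RPKM in -N, 26.8 RPKM in +NH4+ (3.02) and 3.64 RPKM in +NO3-. The 9 plastid identifiers were all low, at most 4.17 RPKM, with 7 higher and 1 lower. Most of the higher ones reached 1 RPKM only in +NH4+, and the lower one only in -N. Some of the higher mitochondrial identifiers also entered only through +NH4+. The minimum of 1 RPKM thus partly set the direction of these counts. Plastid identifiers with names included ribosomal protein gene rpl33 (0.735 and 1.86 RPKM), cemA, an envelope membrane protein gene (0.939 and 1.48 RPKM), and rpl14, which was lower (1.02 and 0.420 RPKM).

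MicroRNAs silence target genes, among them several of the transcription factor families above. Their precursors were mostly at low levels. Of 26 zma-MIR genes compared, 11 were higher and 12 lower, and 8 were listed at 0 in one condition. Of 21 precursors listed under ENSRNA, 13 were higher and 5 lower, with 8 listed at 0 in -N and 3 in +NH4+. Over all identifiers, 19.6% were higher and 11.3% lower. Many microRNA identifiers reached 1 RPKM in only 1 condition, which fixed the direction of their difference, so these counts are only a description. Among the more abundant, zma-MIR159a, of a family known to regulate MYB factors, was at 28.7 RPKM in -N, 62.9 RPKM in +NH4+ (1.13) and 21.1 RPKM in +NO3-. zma-MIR169c, of a family that targets NF-YA factors, was at 26.9 and 54.0 RPKM (1.00). zma-MIR171f and a MIR171 precursor on chromosome 5 (8896282 to 8896437), of the family that targets scarecrow-like factors, were lower, at 133 and 73.05 RPKM (-0.87) and at 80.1 and 14.1 RPKM (-2.51). zma-MIR164b, of the family that targets NAC factors, was at 17.1 RPKM in -N, 6.94 RPKM in +NH4+ (-1.30) and 22.3 RPKM in +NO3-. zma-MIR393a, of the family that targets the auxin receptor genes, was at 3.00 and 12.5 RPKM (2.06). Members of a family did not all move the same way, as with zma-MIR160d (9.50 and 4.20 RPKM) and a mir-160 precursor on chromosome 4 (4.20 and 14.6 RPKM).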

How the data were processed

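RNA sequencing of primary root apexes of B73 was analysed for -N and +NH4+, with +NO3- beside them. Per the submitters' processing notes and the study's methods, reads were processed with CASAVA 1.8, trimmed with Trimmomatic 0.33 and mapped with TopHat2 2.0.13 to B73 RefGen_v4, alignments with a mapping quality under 1 were removed, and Cuffdiff of Cufflinks 2.2.1 was run with quartile normalization and a correction for reads mapping to several places. The deposited table holds the RPKM the authors obtained, 1 value per condition over 3 replicates. The multi-read correction makes values of similar genes less certain. The record gives 10 to 15 plants per replicate and the methods another number.

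From these values, log2 ratios without a pseudocount were computed in Python 3.11.15 with numpy 2.4.6 and pandas 2.3.3. Plots used matplotlib 3.10.9 and the interval of a share scipy 1.17.1. Identifiers needed 1 RPKM in one condition, and 0.58 is the fold threshold of the study, without its test over replicates, which the pooled values do not allow. Counting was tested on simulated data. Roles come from the descriptions in the study's lists, and all 274 entries of them differed from the deposited values by no more than 0.051 RPKM. Places and names of ENSRNA and GRMZM5G identifiers come from the study's annotated table. The reference gene table matched 0 Zm00001d identifiers, so no description or sequence was added and planned keyword lists over all genes were not used. Genes named are those of the lists (largest change or level first), the 10 largest changes by ratio (at least 10 RPKM, above 0 in both) and by RPKM in each direction, also given among gene models alone, and microRNA and organelle genes past the threshold; identifiers outside this rule were chosen after their values were seen. The members and lists were chosen with earlier results of these data known. Alternatives were pseudocounts of 0.1 and 1, no minimum or 5 RPKM, 4 rescalings (that to the total of gene models was added after seeing the data), gene models alone, and a threshold of 1.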

Additional observations from a re-analysis of the deposited data

How the results depend on the processing

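No paired analysis was possible because the table holds 1 pooled value per condition, and for the same reason no replicate could be left out. Among identifiers past the threshold, 63.3% were higher in +NH4+ (95% Wilson interval 62.2% to 64.5%, for the counting of identifiers only). The interval treats identifiers as independent draws and holds no spread between replicates. It is therefore no measure of how precisely the experiment fixed this share. This share was 66.0% with a pseudocount of 1 RPKM, 61.1% without a minimum and 78.3% beyond a log2 ratio of 1. It was 60.2% after scaling to a median log2 ratio of 0, 54.6% to the same total, 57.3% to the same upper quartile and 58.4% to the same total over gene models. All of these rescaled shares lay below the interval, so the choice of scaling moved the share further than the interval spans. Without a minimum 8534 identifiers were higher and 5432 lower, with a minimum of 5 RPKM 2747 were higher, and beyond a log2 ratio of 1 there were 2129 and 591. Of 182 medians of role lists under alternatives, 179 kept their side of the threshold. The others were ammonium and urea transport at 0.32 and class III peroxidases at -0.56, both with a pseudocount of 1, and sugar transport at 0.75 with members under 1 RPKM included. The pseudocount shrinks ratios of low values by construction. Without counts, the depth that limits low genes is unknown.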
